A study of Mus musculus with 3 samples.

Results

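The plasminogen activation system was described here through 7 listed genes: the activators Plat and Plau, the cell-surface receptors Plaur, Anxa2 and S100a10, and the inhibitors Serpinb2 and Serpine2. The genes were chosen by their differences between the 3 arrays together with their known roles, and each was represented by the probe set that carries its symbol alone. Of the 7, 6 had such a probe set, out of 22180 genes measured in this way. Serpine2, which encodes protease nexin-1, a serpin that inhibits thrombin and plasminogen activators, had no listed probe set and is not analysed here.

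Plasminogen circulates as an inactive precursor and is cut to the broad protease plasmin by tissue-type or urokinase-type plasminogen activator. Receptors hold the activators and plasminogen on the cell surface, where activation is faster, and serpins end it by trapping the activator in a covalent complex. In the retina, tissue plasminogen activator has been studied in injury of ganglion cells, and it is used in the clinic to dissolve blood clots under the retina.

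Gene expression was measured on Affymetrix whole-transcript arrays in retinae of C57 mice, the strain given for all groups, after injection of an agent into the vitreous. The groups were cavtratin, a peptide of the caveolin-1 scaffolding domain made able to enter cells, at 2 hr, Cav1-shRNA, a short hairpin RNA named for the caveolin-1 transcript, at 2 days, and the control AP, an abbreviation that the labels leave unexplained, at 2 hr. Each group was 1 array of RNA from 5 to 6 retinae pooled together, and the age and sex of the mice were not given in the sources used here. The 3 arrays have no replicates, so no test was possible and every difference below is between arrays, not between conditions.

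Values are the deposited expression values, read as log2, and a difference of 1 is 2-fold. A value was treated as low when it lay under a floor of 6.50, the median of the mean levels of all probe sets with 1 symbol. Array medians lay between 6.01 and 6.07. Of the 11510 genes that reached the floor in any array, 43.2% had exactly the same value in all 3 arrays, so an exact tie carries little information. Cav1 itself read 8.26 in all 3 arrays, so the array named for the hairpin is called the array labelled Cav1-shRNA throughout. The only spread that the table holds is that between probe sets of one gene within a comparison. Its SD, as the root mean square over genes, was 0.142 for cavtratin minus AP control (279 genes) and 0.088 for Cav1-shRNA minus AP control (274 genes). It was 0.135 for Cav1-shRNA minus cavtratin (278 genes). The median SD of a gene was lower, at 0.034, 0.032 and 0.039 in the same order. The SD used below is the root mean square, and it contains no spread between animals or pools. Rod photoreceptor markers were high and close to equal, with mean levels of 11.97 in cavtratin, 12.00 in the array labelled Cav1-shRNA and 12.00 in AP control over 8 genes, and all 8 stood above the floor in every array.

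The main results turn on 4 genes: Plat had its lowest value after cavtratin, while Plaur, Anxa2 and Serpinb2 each had their highest value there. RefSeq (GRCm38.p6) gave promoter windows, from 250 bases before to 50 bases after the start of the gene, for 4 of the 7 listed genes. There was no window for Plat, Plau or S100a10. The windows of the 3 genes that stood highest after cavtratin by more than the SD between probe sets are shown on the + strand, which is the strand of each gene, at chr7:24462233-24462532 for Plaur, chr9:69453433-69453732 for Anxa2 and chr1:107511173-107511472 for Serpinb2. Capitals mark TGANTCA (a form bound by Jun and Fos proteins), TGACNTCA (a form bound by CREB and related proteins) and TATAAA, searched on both strands.
Plaur: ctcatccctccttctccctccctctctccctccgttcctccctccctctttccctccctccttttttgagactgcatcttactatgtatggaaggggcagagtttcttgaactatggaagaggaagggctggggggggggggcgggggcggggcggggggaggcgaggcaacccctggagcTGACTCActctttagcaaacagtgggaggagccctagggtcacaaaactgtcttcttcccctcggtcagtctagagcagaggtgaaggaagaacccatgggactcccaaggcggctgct
Anxa2: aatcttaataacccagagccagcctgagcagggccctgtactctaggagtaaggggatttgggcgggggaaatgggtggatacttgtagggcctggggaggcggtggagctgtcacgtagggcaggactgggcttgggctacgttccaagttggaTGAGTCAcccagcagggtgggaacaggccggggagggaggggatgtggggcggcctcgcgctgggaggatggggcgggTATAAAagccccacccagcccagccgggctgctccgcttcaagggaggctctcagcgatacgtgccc
Serpinb2: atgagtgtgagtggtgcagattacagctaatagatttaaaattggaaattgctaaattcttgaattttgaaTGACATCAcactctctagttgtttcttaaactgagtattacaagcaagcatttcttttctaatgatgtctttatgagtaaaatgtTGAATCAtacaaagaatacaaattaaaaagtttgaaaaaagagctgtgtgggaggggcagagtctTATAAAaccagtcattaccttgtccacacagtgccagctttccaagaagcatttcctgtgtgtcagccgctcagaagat

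Each of these 3 windows held TGANTCA 1 time. With the start of the gene counted as 1 and the base before it as −1, it lay at −69 to −63 in Plaur, at −95 to −89 in Anxa2 and at −94 to −88 in Serpinb2. Of all 32851 windows of this length, 7.81% held it. TGACNTCA was found only in the Serpinb2 window, at −179 to −172, and in 8.83% of all windows. TATAAA was present in the windows of Anxa2, at −17 to −12, and Serpinb2, at −29 to −24, and in 13.6% of all windows. A later start of Serpinb2 has an overlapping window that kept TGANTCA and TATAAA and lost TGACNTCA. GGGCGG, to which Sp1 binds, was found 3 times each in Plaur and Anxa2, with matches that share a base in Plaur, and 0 times in Serpinb2, against 35.7% of all windows with at least 1. The NF-kB consensus was in none of the 3, against 8.46% of all windows. The window of Serpine2 held GGGCGG but none of the other motifs. No overlap was found among the marked motifs. These are matches of letters, and binding was not measured. The 3 windows were picked by the values after cavtratin. With no window for Plat, Plau or S100a10, they could not be set beside the other measured genes, and a link of a motif to the differences was not tested.

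**Figure D1:**
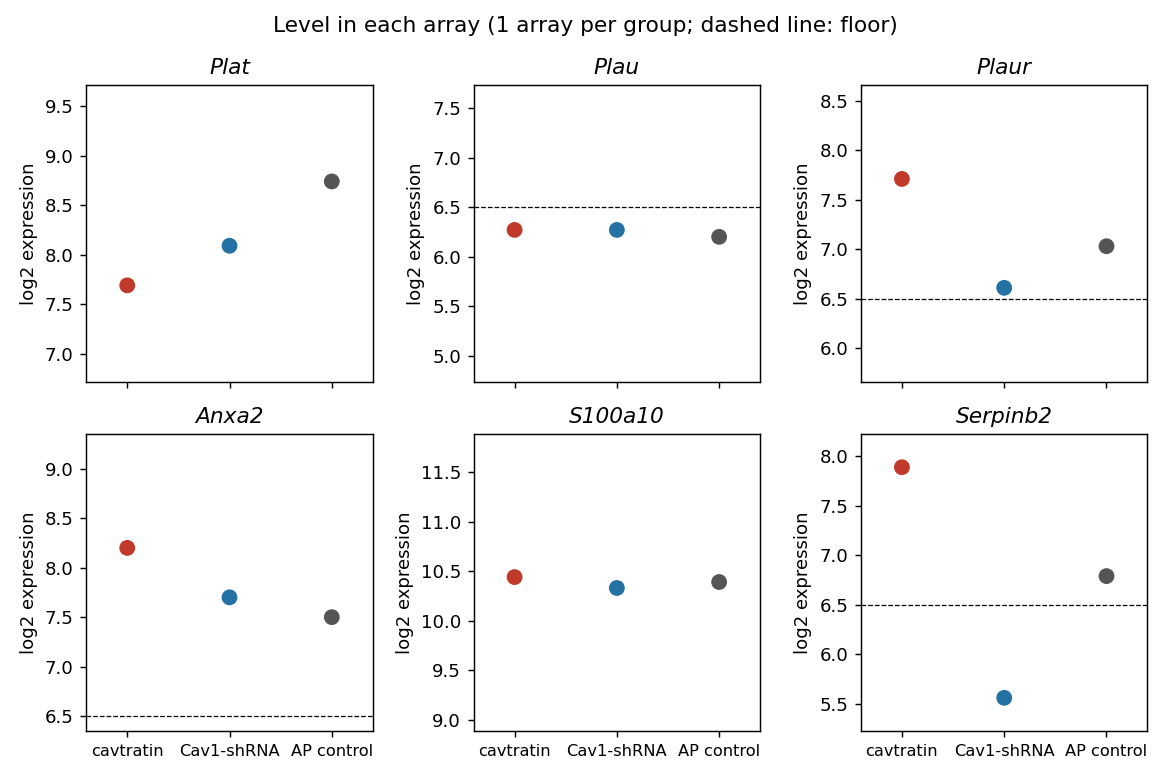
Deposited log2 expression (y axis, the same span of 3 log2 units in each panel) of the 6 measured genes in the cavtratin, Cav1-shRNA and AP control arrays (x axis). Each point is 1 array and the dashed line is the floor of 6.50. Plat is lowest in cavtratin at 7.69, Plaur, Anxa2 and Serpinb2 are highest there at 7.71, 8.20 and 7.89, and Serpinb2 in the array labelled Cav1-shRNA lies under the floor at 5.56.

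Among the activators, Plat, which encodes tissue-type plasminogen activator, differed most. Its level was 7.69 in cavtratin, 8.09 in the array labelled Cav1-shRNA and 8.74 in AP control. Cavtratin and the array labelled Cav1-shRNA thus both read lower than AP control, with cavtratin the lowest, and all 3 values stood well above the floor. The difference was −1.05 for cavtratin minus AP control, a fold size of 2.07, and −0.65 for the array labelled Cav1-shRNA minus AP control, a fold size of 1.57. In the direct comparison the array labelled Cav1-shRNA was 0.40 above cavtratin. Some inflammatory genes, picked after their values were seen, were also highest in the AP control array. Cxcl10, an interferon-inducible chemokine, read 7.03 in cavtratin, 6.42 in the array labelled Cav1-shRNA and 10.32 in AP control. Il6, an acute-phase cytokine, read 4.98, 4.34 and 7.31 in the same arrays, under the floor except in AP control. Other inflammatory genes were highest in cavtratin. Ptgs2 read 10.29, 7.79 and 8.60 in the same arrays, and Cd14 read 9.73, 7.67 and 7.09. Both lower readings of Plat rest on this 1 AP control array, and its part in them was not tested. In cavtratin minus AP control 8 of 11477 genes had a lower difference than Plat. Plat was chosen with this difference known, so nothing is read from its rank. In bulk retina, fewer cells that express a gene and less RNA per cell cannot be told apart.

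Plau, which encodes urokinase-type plasminogen activator, was under the floor in every array. It read 6.27 in cavtratin, 6.27 in the array labelled Cav1-shRNA and 6.20 in AP control. The first 2 values were exactly equal, and both differences from AP control were 0.070, less than the SD between probe sets of a gene. No direction was read for this activator.

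Among the receptors, Plaur, which encodes the membrane-anchored urokinase receptor, was highest in cavtratin and lowest in the array labelled Cav1-shRNA. Its level was 7.71 in cavtratin, 6.61 in the array labelled Cav1-shRNA and 7.03 in AP control. AP control lay between them, and the array labelled Cav1-shRNA was close to the floor. The difference from AP control was 0.69 for cavtratin, a fold size of 1.61, and −0.42 for the array labelled Cav1-shRNA, a fold size of 1.34. Neither reached 2-fold, whereas the direct comparison of the array labelled Cav1-shRNA with cavtratin did, at −1.11, a fold size of 2.15.

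Anxa2 and S100a10 encode annexin A2 and its partner p11, which form a complex at the plasma membrane that binds plasminogen and tissue-type plasminogen activator. Anxa2 had a level of 8.20 in cavtratin, 7.70 in the array labelled Cav1-shRNA and 7.50 in AP control. It was highest in cavtratin, by 0.70 over AP control, a fold size of 1.63, and only 0.20 higher in the array labelled Cav1-shRNA than in AP control. The array labelled Cav1-shRNA was at −0.50 against cavtratin, and no difference of Anxa2 reached 2-fold.

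S100a10 did not show the range of its partner. It read 10.44 in cavtratin, 10.33 in the array labelled Cav1-shRNA and 10.39 in AP control. The differences from AP control, 0.050 for cavtratin and −0.063 for the array labelled Cav1-shRNA, were under the SD between probe sets of a gene, as was the −0.11 of the array labelled Cav1-shRNA minus cavtratin. The spans over the 3 arrays were 0.11 for S100a10 and 0.70 for Anxa2.

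Serpinb2 was the inhibitor measured here. It encodes plasminogen activator inhibitor type 2, a serpin that blocks urokinase above all and is made in quantity by activated monocytes and macrophages. Its level was 7.89 in cavtratin, 5.56 in the array labelled Cav1-shRNA and 6.79 in AP control. The span of 2.33 was the widest of the 6 genes, and AP control again lay between the other arrays. Cavtratin minus AP control was 1.10, a fold size of 2.14, and the array labelled Cav1-shRNA minus AP control was −1.23, a fold size of 2.34. The array labelled Cav1-shRNA minus cavtratin was −2.33, a fold size of 5.02, and 5 of 11472 genes had a lower difference. The level in the array labelled Cav1-shRNA lay under the floor, so these 2 folds can be too small. Serpinb2 too was chosen with its differences known, so nothing is read from its rank. A further probe set carries the symbol of Serpinb2 together with that of another gene and was not used.

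**Figure D2:**
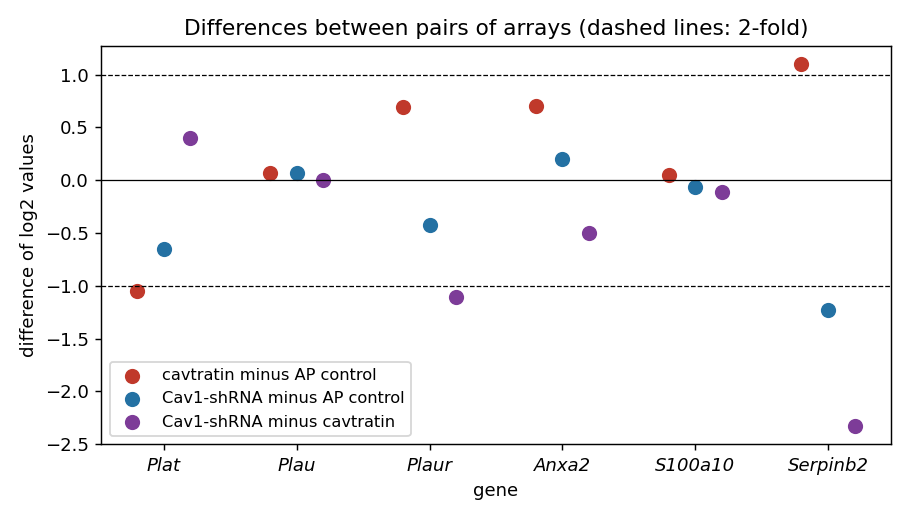
Differences of log2 values (y axis) of the 6 measured genes (x axis) for cavtratin minus AP control, Cav1-shRNA minus AP control and Cav1-shRNA minus cavtratin. Each point is the difference of 2 arrays and the dashed lines mark 2-fold. Plat at −1.05 and Serpinb2 at 1.10 pass the lines in cavtratin minus AP control, Serpinb2 at −1.23 passes in Cav1-shRNA minus AP control, and Plaur at −1.11 and Serpinb2 at −2.33 pass in Cav1-shRNA minus cavtratin.

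Set side by side, Plat and Serpinb2, the activator and inhibitor with 2-fold differences, lay on opposite sides of AP control after cavtratin. In the array labelled Cav1-shRNA both lay below AP control, at −0.65 for Plat and −1.23 for Serpinb2. Of the 6 measured genes, 5 reached the floor in at least 1 of the compared arrays, all but Plau. In cavtratin minus AP control 1 was at least 2-fold higher, Serpinb2, where 1.36% of 11477 genes were, and 1 was at least 2-fold lower, Plat, where 0.0958% were. In the array labelled Cav1-shRNA minus AP control, 0 were at least 2-fold higher, where 0.341% of 11433 genes were, and 1 was at least 2-fold lower, Serpinb2, where 0.122% were. In the array labelled Cav1-shRNA minus cavtratin, 0 were at least 2-fold higher, where 0.0349% of 11472 genes were, and 2 were at least 2-fold lower, Plaur and Serpinb2, where 0.785% were. The genes were chosen with these differences known, so nothing is read from the counts or from the sides on which they lay. Both comparisons with AP control share that array. The array labelled Cav1-shRNA differs both from AP control and from cavtratin in agent and in time after injection, which cannot be told apart in either comparison.

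Genes whose pair of differences from AP control was nearest to that of each gene with a 2-fold difference were looked up among 10313 others at or above the floor. The measure was the straight-line distance between the pairs, in log2 units over 3 arrays, so a low distance says only that the values run alike. For Plat the nearest were Vcam1, an endothelial adhesion molecule for leukocytes, at 0.143, Ptx3, a soluble pentraxin, at 0.152, Cfb, complement factor B, at 0.158, Ano1, a calcium-activated chloride channel, at 0.159, and Tnfaip6, a hyaluronan-binding protein, at 0.301. Ptx3, Ano1 and Tnfaip6 reached the floor in AP control alone, so their distances rest on values under it and are not exact. Vcam1 read 7.83 in cavtratin, 8.05 in the array labelled Cav1-shRNA and 8.75 in AP control, the same order of arrays as Plat.

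For Plaur the nearest was Birc3, an inhibitor of apoptosis that NF-kB induces, at a distance of 0.040. Birc3 read 8.02 in cavtratin, 6.87 in the array labelled Cav1-shRNA and 7.30 in AP control. Trim30a, Isg20, Stx11 and Oasl1 followed at 0.228 to 0.288. Trim30a was under the floor in the array labelled Cav1-shRNA, at 6.16, so its distance is not exact. Isg20 and Oasl1 are interferon-inducible genes, and Stx11 encodes a syntaxin of immune cells.

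The 5 genes nearest to Serpinb2 lay at 0.696 to 0.829. These distances are not exact, since the level of Serpinb2 in the array labelled Cav1-shRNA was under the floor, as were those of Crygc, Grem1 and Trim30d, and Crygc reached it in cavtratin alone. They were Crygc, a lens crystallin, Ptgs2, the inducible cyclooxygenase, Rsad2, an interferon-inducible antiviral enzyme, Grem1, a secreted BMP antagonist, and Trim30d. Ptgs2 read 10.29 in cavtratin, 7.79 in the array labelled Cav1-shRNA and 8.60 in AP control, which is the same order of arrays as Serpinb2. Grem1 read 7.79, 6.18 and 7.49 in the same arrays and differed from AP control by −1.31 in the array labelled Cav1-shRNA and by 0.30 in cavtratin.

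**Figure D3:**
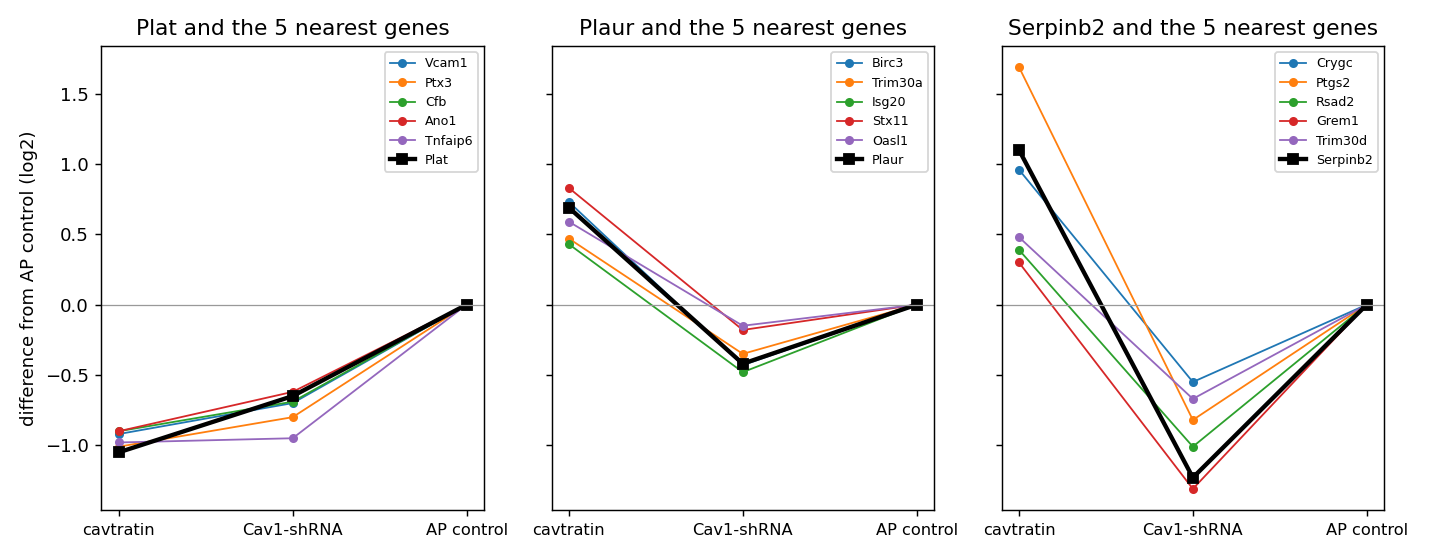
Difference from AP control in log2 units (y axis) in the cavtratin, Cav1-shRNA and AP control arrays (x axis; AP control is 0 by construction) for Plat, Plaur and Serpinb2 in black and the 5 genes nearest to each in colour. Each point is 1 array and a line joins the points of a gene. The neighbours of Plat and Plaur lie within distances of 0.301 and 0.288, while the nearest neighbour of Serpinb2 is 0.696 away.

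The rest of the plasminogen system differed mainly in leukocyte receptors. A list of 28 other genes of the system had 23 with a probe set, of which 14 reached the floor. Against AP control, cavtratin had 3 at least 2-fold higher, where 1.36% of all genes at or above the floor were, the array labelled Cav1-shRNA had 2, where 0.341% were, and neither had any lower. The list median was 0 in both comparisons, as it was over all genes. Plg, plasminogen itself, read 5.15 in all 3 arrays and lay under the floor, as did the plasmin inhibitor Serpinf2, at 5.36 in all 3.

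Fpr2, a formyl peptide receptor of myeloid cells listed because the urokinase receptor signals through it, had a level of 8.32 in cavtratin, 6.78 in the array labelled Cav1-shRNA and 5.33 in AP control. Itgb2, the leukocyte integrin beta chain, read 8.53 in cavtratin, 7.71 in the array labelled Cav1-shRNA and 6.70 in AP control. Itgam, its alpha M partner and a plasminogen receptor, read 8.0 in cavtratin, 7.15 in the array labelled Cav1-shRNA and 6.32 in AP control. All 3 genes ran from high in cavtratin to low in AP control. The differences of cavtratin from AP control were 2.99, 1.82 and 1.68 in that order, and those of the array labelled Cav1-shRNA were 1.45, 1.01 and 0.83. Fpr2 and Itgam lay under the floor in AP control, so their folds can be too small. Fpr2 was also at −1.53 in the array labelled Cav1-shRNA minus cavtratin, the 1 gene of the list that was 2-fold apart there. The other 11 genes at or above the floor held Plgrkt, a plasminogen receptor, at 7.46, 7.46 and 7.42, Serpini1, neuroserpin, the neuronal inhibitor of tissue-type plasminogen activator, at 8.62, 8.63 and 8.65, and Lrp1, which clears complexes of protease and serpin, at 8.92, 8.75 and 8.66, each in cavtratin, the array labelled Cav1-shRNA and AP control.

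The next list held genes of proteins on which plasmin or tissue-type plasminogen activator acts. Of 18 listed, 17 had a probe set, 10 reached the floor and 0 were 2-fold apart in any comparison. Among these 10, the largest differences were in cavtratin minus AP control, where Mmp9, a gelatinase, was at 0.74, Fn1, fibronectin, at 0.55 and Tgfb1, a latent cytokine, at 0.48. In the array labelled Cav1-shRNA minus AP control they were at 0.21, 0.27 and 0.35. Mmp12, a macrophage elastase, was at 0.097 in both comparisons. Mmp3, a stromelysin under the floor in every array, was at −0.97 in the array labelled Cav1-shRNA minus cavtratin.

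Coagulation genes were at least 2-fold higher than in AP control in 3 cases in cavtratin and in 2 in the array labelled Cav1-shRNA, of 22 measured, with 0 lower and a median of 0. Of all genes at or above the floor, 1.36% and 0.341% were at least 2-fold higher in these comparisons. At or above the floor were 9 genes in cavtratin minus AP control and 8 in the array labelled Cav1-shRNA minus AP control. F10, clotting factor X, read 8.51 in cavtratin, 7.52 in the array labelled Cav1-shRNA and 6.47 in AP control. F13a1, the subunit of the fibrin-crosslinking factor XIII that macrophages also make, read 7.82 in cavtratin, 7.08 in the array labelled Cav1-shRNA and 5.99 in AP control. Thbd, thrombomodulin, read 6.87 in cavtratin, 6.14 in the array labelled Cav1-shRNA and 5.78 in AP control. All 3 were highest in cavtratin and under the floor in AP control, so their folds can be too small. In the array labelled Cav1-shRNA minus cavtratin, 0 of the 22 were 2-fold apart, with F10 just short at −0.996. F3, tissue factor, stood above the floor in every array and was lowest in the array labelled Cav1-shRNA. It read 8.49 in cavtratin, 7.88 in the array labelled Cav1-shRNA and 8.59 in AP control. Its −0.71 in the array labelled Cav1-shRNA minus AP control was the lowest difference of the list there.

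**Figure D4:**
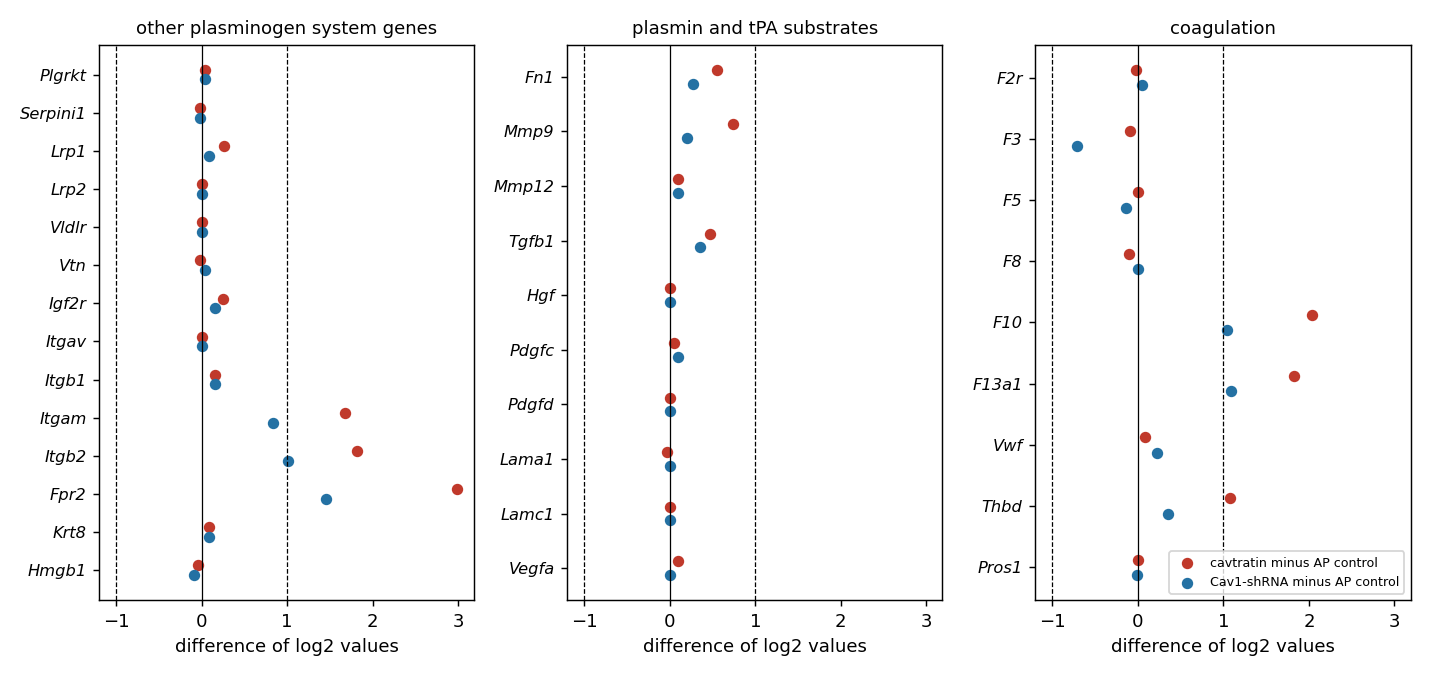
Differences from AP control in log2 units (x axis) of those genes in 3 lists that reached the floor (y axis), in red for cavtratin and in blue for Cav1-shRNA. Each point is the difference of 2 arrays and the dashed lines mark 2-fold. Fpr2 at 2.99, F10 at 2.04, F13a1 at 1.83, Itgb2 at 1.82, Itgam at 1.68 and Thbd at 1.08 lie past the line in cavtratin, and most other genes lie near 0.

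Leukocyte markers differed between the same arrays. Of 15 measured neutrophil and monocyte markers, 13 were above 0 and 1 below in cavtratin minus AP control, and 13 and 0 in the array labelled Cav1-shRNA minus AP control. Of all 22180 genes, 3879 were above 0 and 4644 below in cavtratin minus AP control. In the array labelled Cav1-shRNA minus AP control, 4973 were above 0 and 4098 below. The mean level of the neutrophil and monocyte markers was 7.16 in cavtratin, 6.45 in the array labelled Cav1-shRNA and 5.86 in AP control. In the same arrays, 9, 6 and 4 of the 15 were at or above the floor. Both summaries put cavtratin highest and AP control lowest. The 16 microglia and macrophage markers averaged 8.25 in cavtratin, 7.96 in the array labelled Cav1-shRNA and 7.36 in AP control. Ly6g, which defines neutrophils, was under the floor in every array, at 5.47 in cavtratin, 4.94 in the array labelled Cav1-shRNA and 4.92 in AP control, as was Tmem119, which defines resident microglia, at 5.89 in all 3. Camp, Ngp, Ltf, Ccr2 and Aif1 were also under the floor in every array. In AP control, so were S100a8, S100a9, Retnlg, Mmp8, Il1r2 and Clec4d. Csf3r, Cxcr2, Cx3cr1 and P2ry12 stood above the floor in every array, with Cxcr2 close to it in AP control. The neutrophil receptors Csf3r and Cxcr2 read 9.10 and 8.08 in cavtratin, 7.71 and 6.81 in the array labelled Cav1-shRNA and 7.15 and 6.58 in AP control. The microglial receptor Cx3cr1 read 7.59, 7.73 and 7.57 in the same arrays, and P2ry12 was at 6.87 in all 3. Lens markers, 20 in number, averaged 7.11 in cavtratin, 6.11 in the array labelled Cav1-shRNA and 6.21 in AP control. In cavtratin minus AP control, 15 of these 20 were above 0 and 2 below. Of the 12 at or above the floor there, 7 were at least 2-fold higher and 0 lower, with a median of 1.173. The share of all genes at or above the floor that were 2-fold higher was 1.36%. In the array labelled Cav1-shRNA minus AP control, 0 lens markers were 2-fold apart. By their means both leukocyte lists ran in the order of Anxa2, but their members did not all do so. In Cav1-shRNA minus cavtratin, 6 of the 16 microglia and macrophage markers were above 0 and 8 below, with a median of −0.0080. Of all 22180 genes, 4953 were above 0 and 3736 below in that comparison. Their median was 0, also over those at or above the floor. Ctss, a lysosomal cathepsin of microglia, read 9.10 in the array labelled Cav1-shRNA, 8.57 in cavtratin and 8.24 in AP control. Ly6c2, a marker of inflammatory monocytes, read 8.08 in the array labelled Cav1-shRNA, 6.16 in cavtratin and 6.59 in AP control. Plaur and Serpinb2 were lowest in the array labelled Cav1-shRNA, and Plat was highest in AP control. The part of these markers in the differences of the 6 genes was not tested.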

How the data were processed

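Expression was measured on 3 arrays, 1 per group, from biotin-labelled cDNA made with a GeneChip WT kit, per the labels' protocols. The deposited table held 41345 probe sets with values read as log2 expression. The log base was inferred from the range of 1.88 to 13.42, and what the authors did to summarise and normalize is not given in the sources used here. GEO's platform annotation, which can be old, gave 1 symbol to 23521 probe sets, several to 1814 and none to 16010. The probe set with the highest mean stood for its gene. Differences of 2 arrays were taken as deposited, with no scaling of any kind. A difference of 1 or more in size, with the higher array at the floor or over it, counted as 2-fold. With 1 array per group there is no test, and the number of arrays limits the precision.

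The listed genes, the wider lists and the markers were chosen with earlier results of these data known. Named were all listed genes, every wider-list gene 2-fold apart or else up to 4 with the largest differences, and the 5 nearest genes by pattern, with predicted models, small RNAs and multicopy families such as Gbp and Ifi left out. Values of Plg, Serpinf2, Plgrkt, Serpini1, Lrp1, Mmp3, F3, Cxcl10, Il6 and the leukocyte markers were added after they were seen, as were those of Birc3, Vcam1, Ptgs2 and Grem1 by array. Alternatives were centring, quantile normalization, the mean of all probe sets, loess (span 0.3), other floors and folds of 1.5 and 3. The counting was checked on simulated data. Python 3.11.15, pandas 2.3.3, NumPy 2.4.6, statsmodels 0.14.6 and matplotlib 3.10.9 were used.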

Additional observations from a re-analysis of the deposited data

How the results depend on the processing

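All 54 recomputed differences of the 6 genes, under centring, quantile normalization and loess, stayed within 1 SD between probe sets of the deposited difference. For centring this was fixed in advance, since it adds the same amount to every gene. The amounts were 0.007, 0.058 and 0.051 for the 3 comparisons in turn, each under the SD there. Loess left the differences almost as deposited, with Plat at −1.053 before and after in cavtratin minus AP control. Of the genes at the floor in any array, 54.4%, 52.7% and 54.6% had exactly equal values in the 3 comparisons in turn. With so many ties the trend that loess subtracts lies near 0, so its result was close to fixed in advance too. Each of the 6 has 1 probe set, so the mean of all probe sets changes nothing by construction. The nearest to a change of sign was S100a10 in Cav1-shRNA minus AP control, at −0.0050 after centring, and Plau in Cav1-shRNA minus cavtratin, exactly 0 as deposited, was 0.051 after centring. Counts of 2-fold genes among the 6, in the wider plasminogen list and in the coagulation list did not change under these settings, and the other lists were not recomputed. Of 75 recomputed counts, 19 moved by over 1.5 times. With both arrays required to reach the floor, the 6 genes held 0 in Cav1-shRNA minus AP control and 1 in Cav1-shRNA minus cavtratin, against 1 and 2. The wider plasminogen list then held 1 in each comparison with AP control, against 3 for cavtratin and 2 for Cav1-shRNA, and the coagulation list 0 in each, against 3 and 2. At 1.5-fold the 6 genes held 4 in cavtratin minus AP control and 2 in Cav1-shRNA minus AP control, and in Cav1-shRNA minus cavtratin the wider list held 3 and the coagulation list 4. At 3-fold the 6 genes held 0 in each comparison with AP control and 1, Serpinb2, in Cav1-shRNA minus cavtratin. At 3-fold the wider list held 0 in Cav1-shRNA minus AP control and in Cav1-shRNA minus cavtratin, and the coagulation list 0 in Cav1-shRNA minus AP control. Without the leukocyte receptors Itgam, Itgb2, Fpr1 and Fpr2, an alternative chosen after seeing the data, the wider list held 0 in all 3 comparisons. These moves follow from the thresholds and list members themselves. The share of all genes at these other floors and folds was not computed. The genes were also chosen with their differences known, so nothing is read from these counts. No paired analysis was possible because each group has 1 array and the groups share only the number 1. No replicate could be left out for the same reason. Values under the floor, signal against background being unknown, limit Plau in all arrays and Serpinb2 in the array labelled Cav1-shRNA.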

Other observations

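Relatives of the receptor and inhibitor genes were also measured. Of 24 other annexins and S100 proteins with a probe set, 10 reached the floor in cavtratin minus AP control, and 3 were at least 2-fold higher there, where 1.36% of all genes at or above the floor were. S100a8, a calcium-binding protein of neutrophils and monocytes, read 9.72 in cavtratin, 7.44 in the array labelled Cav1-shRNA and 5.98 in AP control. Its partner S100a9 read 7.46 in cavtratin, 6.02 in the array labelled Cav1-shRNA and 5.77 in AP control. S100a6, calcyclin, read 9.04 in cavtratin, 8.38 in the array labelled Cav1-shRNA and 8.01 in AP control. S100a11, another S100 protein, named here after its values were seen, read 10.20 in cavtratin, 9.63 in the array labelled Cav1-shRNA and 9.20 in AP control, a difference of 0.993 in cavtratin where S100a10 had 0.050. No annexin of the list was 2-fold apart.

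Of 18 other serpins with a probe set, 7 reached the floor and 0 were 2-fold apart in any comparison. Serping1, the inhibitor of complement C1, had the largest difference among the 7, 0.48 in Cav1-shRNA minus cavtratin, with 9.70 in the array labelled Cav1-shRNA, 9.22 in cavtratin and 9.51 in AP control. Serpinh1, a collagen chaperone, was 0.43 higher in cavtratin than in AP control. Serpine3 was at 0.30 and Serpina3n, an acute-phase serpin of reactive glia, at 0.26 in Cav1-shRNA minus cavtratin.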
